A study of Mus musculus with 6 samples.

Results

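The genes described here move or bind zinc and copper: the 10 ZnT transporters (*Slc30a*), the 14 Zip transporters (*Slc39a*), 4 metallothioneins, the zinc-sensing factor *Mtf1*, the Ctr copper importers *Slc31a1* and *Slc31a2*, and the copper ATPases *Atp7a* and *Atp7b*. They were chosen by name and not by their level, though with earlier results of these data known. They are 33 of the 19938 genes that have a probe set with a single symbol. All 33 were measured, 32 of them by 1 probe set and *Slc39a1* by 2. Villi were collected from the intestine of mouse littermates at 5 days of age. The mutant group (3 arrays) was Trpm7 fl/fl;Villin1-Cre, in which Cre under the *Villin1* promoter removes the floxed part of *Trpm7* in the epithelium of the whole intestine. The control group (3 arrays) was Trpm7 fl/fl without Cre, so that both groups carry the floxed alleles. The labels give the background of both groups as C57BL/6 and the sex as unknown, whereas the methods name 129S6/SvEvTac for the floxed mice and C57BL/6J for the Cre mice. The sources used here do not say if the *Trpm7* probes match the removed part.

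Zip proteins carry zinc into the cytosol, and ZnT proteins carry it out, either across the cell membrane or into vesicles. In an enterocyte, Zip4 takes up zinc from the gut lumen and ZnT1 releases it towards the blood, while metallothioneins hold a reserve of bound zinc and copper in the cytosol. MTF1 binds metal response elements when cytosolic zinc is high and switches on the genes of metallothioneins and of ZnT1. Copper enters through Ctr1, is handed on by chaperones and leaves through ATP7A.

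Each array gave 1 log2 signal per probe set, and medians lay between 6.24 and 6.3. limma was fitted to all 30177 probe sets, and changes are given as mutant minus control on the log2 scale. The words rose and fell are kept for genes with an adjusted p up to 0.05. Of all probe sets, 8.04% rose and 8.82% fell, so that 47.7% of the calls were rises, and 36.6% when each array was centred on its median. Precision is limited by the 3 arrays of each group, for which the smallest two-sided p of an exact permutation test is 0.1. *Trpm7* itself fell by 1.13 (adjusted p = 0.00019 from limma). The Y-linked transcripts did not follow the groups. *Xist* was high in every control replicate but only in replicate 1 of the mutants (difference not called, adjusted p = 0.12 from limma). The part of this imbalance in the changes below was not tested. *Xist* was at 10.18, 4.76 and 5.26 in the mutant replicates and at 10.48, 9.82 and 9.66 in the control replicates, while *Uty* was at 3.88, 8.10 and 8.38 in mutant villi and at 4.24, 7.64 and 7.72 in control villi. Control replicates 2 and 3 thus held both kinds of transcript, and the labels do not say whether an array stands for 1 pup, so p-values measure only the spread between these arrays.

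The enterocyte markers were bright in both groups. Of the 9, 2 rose and 2 fell (22.2% each, beside 8.04% and 8.82% of all probe sets), and *Lct* changed most, with a fall by 0.94. Their summed linear signal was 95816 to 98119 in mutant villi and 102479 to 103761 in control villi, without overlap. Some markers of other cells also moved with genotype. Of 5 goblet cell markers, 4 fell, with a summed signal of 3118 to 3672 in mutant villi and 14208 to 15589 in control villi. Of 4 neutrophil markers, 2 rose (505 to 2244 in mutant villi, 130 to 135 in control villi), and of 5 fibroblast markers, 2 rose (1735 to 2262 in mutant villi, 1138 to 1500 in control villi). Of 5 Paneth cell markers, 2 rose and 1 fell (492 to 563 in mutant villi, 322 to 389 in control villi). Of 5 markers of crypts and proliferation, 2 rose (1578 to 2012 in mutant villi, 1021 to 2500 in control villi), and of 8 enteroendocrine markers, 2 rose and 2 fell (3661 to 4774 in mutant villi, 4255 to 5181 in control villi). All 4 tuft cell markers and all 4 markers of enteric neurons and glia lay under the median of all values in both groups. No call was made among 4 markers of smooth muscle, 3 of endothelium, 5 of leukocytes and 4 of pancreas. The pancreas markers varied widely within both groups (599 to 2140 in mutant villi, 748 to 2422 in control villi). The part of these cells in the changes below was not tested, and fewer cells of a type cannot be told apart from less RNA per cell in such bulk samples.

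Of the 33 zinc and copper genes, 6 fell, 1 rose and 26 were not called. *Slc30a1*, *Slc39a1*, *Slc39a5*, *Slc39a8*, *Slc39a14* and *Slc31a1* fell, and *Slc31a2* rose. The share that fell was 18.2%, beside the 8.82% of all probe sets, and the share that rose was 3.03%, beside 8.04%. Only 3 of the 33 lay under the median of all values in both groups. No share of calls, or of groups without overlap, was taken over bright probe sets alone, so the part of brightness was not tested. None of the 7 changed as much as 2-fold. Of the 26 others, 8 had an unadjusted p under 0.05 from limma, but the share of all probe sets with such a p was not counted. The median change of the 33 was -0.14, with 22 below 0 and 10 above, whereas the median over all probe sets was 0.0033. Without regard to the test, the 3 mutant values lay below the 3 control values in 14 genes and above them in 5. Over all probe sets, mutant values lay wholly below in 17.6% and wholly above in 16.9%.

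**Figure D1:**
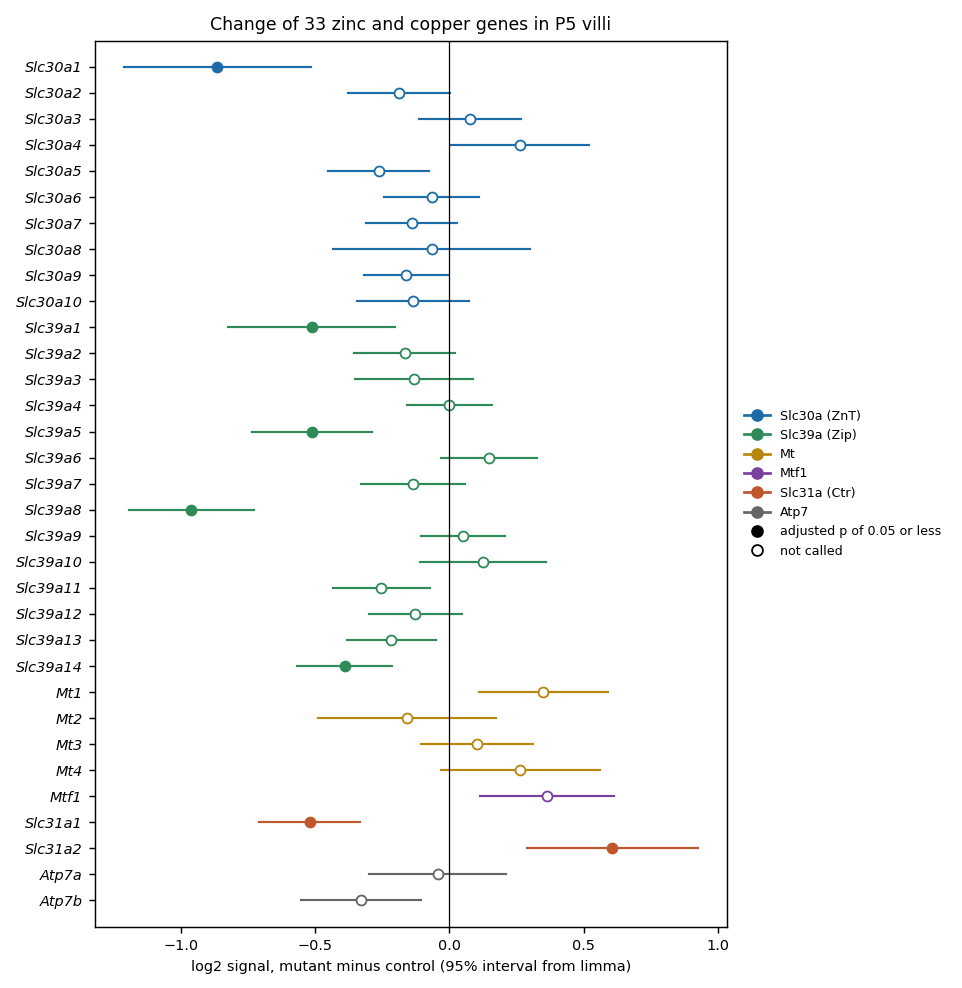
Change of each of the 33 genes in P5 villi, as log2 signal of mutant minus control on the x axis, with points for the estimate and lines for its 95% interval from limma; filled points passed the test. The 6 filled points left of 0 run from -0.96 (*Slc39a8*) to -0.39 (*Slc39a14*), and *Slc31a2* at 0.61 is the only filled point to the right.

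Among the zinc exporters, *Slc30a1* (ZnT1, the basolateral exporter of enterocytes) stood at 8.63, 8.31 and 8.77 in mutant villi, against 9.17, 9.61 and 9.52 in control villi. The groups did not overlap, and the lowest control value was that of replicate 1. *Slc30a1* fell by 0.86 (95% interval -1.21 to -0.52), to 55.0% of the control signal (adjusted p = 0.0069 from limma). It was called in all 15 refits with another setting or fewer arrays, with adjusted p between 0.0026 and 0.030, and it also passed a fold of 1.5. None of the other 9 exporters passed the test. *Slc30a5*, *Slc30a6* and *Slc30a7* load zinc into the early secretory pathway, where alkaline phosphatases receive it. *Slc30a5* was at 9.76, 9.70 and 9.82 in mutant villi and at 9.91, 10.05 and 10.11 in control villi, without overlap (change -0.26, adjusted p = 0.065 from limma). The changes of *Slc30a6* (-0.067) and *Slc30a7* (-0.14) were smaller, with adjusted p of 0.63 and 0.26. Of the transporters of vesicles, *Slc30a2* (ZnT2) changed by -0.19 (adjusted p = 0.18), with 10.49, 10.33 and 10.54 in mutant villi and 10.70, 10.61 and 10.61 in control villi. *Slc30a4* (ZnT4, mutated in lethal milk mice) was one of only 2 exporters with a positive difference, at 10.27, 10.09 and 10.49 in mutant villi and 10.07, 9.92 and 10.07 in control villi (0.26, adjusted p = 0.16). The other was *Slc30a3* (0.077, adjusted p = 0.60), which fills synaptic vesicles. *Slc30a9*, a mitochondrial exporter, changed by -0.16 (adjusted p = 0.15) and *Slc30a10*, which exports manganese, by -0.14 (adjusted p = 0.37). *Slc30a8*, the transporter of insulin granules, lay under the median of all values in both groups, with means of 4.20 in mutant villi and 4.27 in control villi.

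Of the 14 Zip importers, 4 fell (28.6%, beside 8.82% of all probe sets) and none rose (beside 8.04%). *Slc39a8* (Zip8, which also carries manganese and iron) had the largest change of the 33. Its signal was 10.51, 10.51 and 10.82 in mutant villi, against 11.60, 11.60 and 11.52 in control villi. It fell by 0.96 (95% interval -1.19 to -0.73), to 51.4% of the control signal (adjusted p = 0.00069 from limma). *Slc39a14* (Zip14, the closest relative of Zip8 in function and likewise a manganese carrier) was at 10.07, 9.95 and 9.88 in mutant villi and at 10.37, 10.33 and 10.37 in control villi. Its change was smaller, with a fall by 0.39 (95% interval -0.57 to -0.21, adjusted p = 0.012), without overlap between the groups. *Slc39a5* (Zip5), which sits on the basolateral side of enterocytes and faces the blood, was at 9.66, 9.45 and 9.69 in mutant villi and 10.24, 10.03 and 10.06 in control villi. It fell by 0.51 (95% interval -0.73 to -0.29), to 70.2% of the control signal (adjusted p = 0.0097). *Slc39a5*, *Slc39a8* and *Slc39a14* were called in all 15 refits, with the highest adjusted p at 0.045 for *Slc39a14*, but at a required fold of 1.5 only *Slc39a8* of these kept its call.

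*Slc39a1* (Zip1), an importer of the cell membrane in many tissues, stood at 9.78, 9.50 and 9.92 in mutant villi and at 10.45, 10.08 and 10.21 in control villi. It fell by 0.51 (adjusted p = 0.035 from limma), and its second probe set gave a fall by 0.40 (adjusted p = 0.033). The call of the first probe set was lost without mutant replicate 1 (adjusted p = 0.077), mutant replicate 2 (0.103), control replicate 1 (0.092) or control replicate 3 (0.084), and with control replicates 2 and 3 averaged (0.056), and its fold of 1.43 did not reach 1.5, although the change stayed between -0.61 and -0.40 whichever replicate was left out.

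*Slc39a4* (Zip4, the luminal zinc importer whose human gene is mutated in acrodermatitis enteropathica) showed no difference between the group means. Its signal was 11.42, 11.42 and 11.40 in mutant villi and 11.47, 11.37 and 11.40 in control villi, with equal means of 11.41. The 95% interval of the difference ran from -0.16 to 0.16, and leaving out 1 replicate moved the difference to between -0.022 and 0.028. By qPCR on whole duodenum at the same age, the paper reports lower mRNA of *Zip4*, and of *ZnT1*, *ZnT2* and *Zip5*, in mutants. The arrays measured villi of the whole intestine, so the tissue differs. On the arrays, the other 9 importers were not called either. *Slc39a11* was at 8.86, 8.74 and 8.85 in mutant villi and 9.04, 9.01 and 9.16 in control villi (-0.25, adjusted p = 0.063). *Slc39a13*, a transporter of intracellular vesicles known from connective tissue, was at 7.53, 7.55 and 7.42 in mutant villi and 7.73, 7.73 and 7.69 in control villi (-0.22, adjusted p = 0.082). Neither overlapped between groups. The changes of *Slc39a2* (-0.17), *Slc39a3* (-0.13), *Slc39a7* (-0.14, a releaser of zinc from the endoplasmic reticulum) and *Slc39a12* (-0.13) had adjusted p between 0.22 and 0.41. On the positive side lay *Slc39a6* (0.15), *Slc39a10* (0.13) and *Slc39a9* (0.050, but -0.0044 with quantile normalization), with adjusted p of 0.26, 0.47 and 0.68. *Slc39a12*, a transporter of the brain, lay under the median of all values in both groups.

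**Figure D2:**
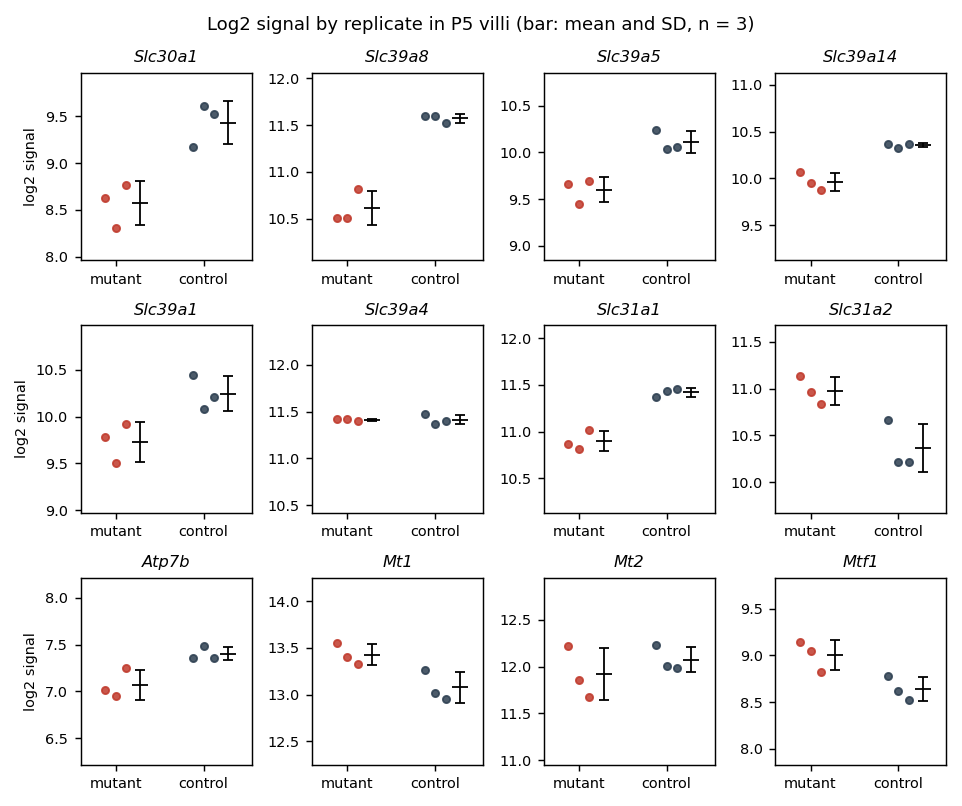
Log2 signal (y axis) of 12 zinc and copper genes in single replicates of mutant villi (red, left) and control villi (dark, right), with bars for the mean and SD of 3 arrays; every panel spans at least 2 log2 units. *Slc30a1*, *Slc39a8*, *Slc39a5*, *Slc39a14*, *Slc39a1* and *Slc31a1* lie lower in mutant villi without overlap, *Slc31a2* lies higher, and *Slc39a4* has equal means of 11.41.

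None of the 4 metallothionein genes passed the test, and 1 (*Mt1*) had an unadjusted p under 0.05. *Mt1* was at 13.55, 13.40 and 13.33 in mutant villi and at 13.26, 13.02 and 12.95 in control villi. The mutant values lay above all control values, and the difference of 0.35 (95% interval 0.11 to 0.59) just missed the threshold (adjusted p = 0.057 from limma). *Mt1* was called in 7 of 15 refits, with adjusted p between 0.015 and 0.170 over all of them. *Mt2* was at 12.22, 11.86 and 11.67 in mutant villi and 12.23, 12.01 and 11.98 in control villi, and the groups overlapped (-0.16, adjusted p = 0.53). *Mtf1* was close to *Mt1* in size, at 9.14, 9.05 and 8.82 in mutant villi and 8.78, 8.62 and 8.52 in control villi (0.36, adjusted p = 0.057), and it was likewise called in 7 of 15 refits (adjusted p between 0.023 and 0.171). In both groups replicate 1, the array with the low *Uty*, had the highest *Mt1*, *Mt2* and *Mtf1* of its group. With the Y-linked level as a covariate, *Mt1* (0.37, adjusted p = 0.015) and *Mtf1* (0.38, adjusted p = 0.023) were called. That level was low in replicate 1 and high in replicates 2 and 3 of both groups. It could therefore not adjust for *Xist*, which differed between the groups in replicates 2 and 3. *Mt3*, known from the brain, changed by 0.10 (adjusted p = 0.51), and *Mt4*, known from squamous epithelium, lay under the median of all values in both groups (0.26, adjusted p = 0.22).

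*Mt1* and *Slc30a1*, which both answer to MTF1, had estimates of opposite sign, of which only that of *Slc30a1* passed the test. Within an array, the log2 signal of *Mt1* exceeded that of *Slc30a1* by 4.92, 5.09 and 4.56 in mutant villi, against 4.09, 3.41 and 3.43 in control villi. This gap was wider by 1.21 in mutant villi. Because *Mt1* lay wholly higher and *Slc30a1* wholly lower in mutant villi, the gap had to separate the groups. The two-sided p of an exact permutation test was therefore fixed at 0.1, the smallest that 3 against 3 arrays can give. It adds nothing to the values of the single genes. The pair was chosen with the values known.

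The metal response element has a short conserved core, which was searched as TGCACNC and TGCGCNC on both strands of the RefSeq promoter windows, which hold 250 bases before and 50 bases after a gene's start (build GRCm38.p6). Windows were given for 29 of the 33 genes, and *Slc30a8*, *Slc39a4*, *Slc39a6* and *Slc39a14* had none in that table. A core was found in 19 of 34 windows (55.9%), and in 25.7% of all 32851 windows. *Mt2* had 4 cores, a number reached by 0.517% of all windows, *Mt1* had 3 and *Slc30a1* had 2. Of the other genes not called, *Slc30a4* and *Slc30a10* also had 3, partly overlapping in *Slc30a10*, and *Slc30a2* and *Atp7a* had 2. Within these windows, the number of cores thus did not set *Mt1* or *Slc30a1* apart, and sites outside them were not searched. Among the other genes that changed, 1 core each was found for *Slc31a2*, for 1 of the 2 windows of *Slc39a5* and for 1 of the 2 windows of *Slc39a8*, and none for *Slc31a1* and *Slc39a1*. A match is a description of letters and not of binding. The sites of the genes known to answer to MTF1 (without 1 of *Mt1*, which overlaps its neighbours) and of the changed transporters are shown to let their cores be compared, with 11 bases on each side, on the strand of the gene, with the core in capitals (a core on the other strand reads as its reverse complement).
*Mt1*, chr8:94179055-94179083, + strand: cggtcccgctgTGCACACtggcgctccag
*Mt1*, chr8:94179098-94179126, + strand: cgcccgaaaagTGCGCTCggctctgccaa
*Mt2*, chr8:94172384-94172412, + strand: agcatcgcctcTGCACCCggcccctcggg
*Mt2*, chr8:94172479-94172507, + strand: cgcagacccttTGCGCTCagctcctttgc
*Mt2*, chr8:94172557-94172585, + strand: ggggggagggcGTGTGCAggctctgtccc
*Mt2*, chr8:94172611-94172639, + strand: gaattcgggtcGTGCGCAggcccaggggc
*Slc30a1*, chr1:191906727-191906755, + strand: acgggggttccGAGTGCAaagcaaagttt
*Slc30a1*, chr1:191906800-191906828, + strand: gcctccgggccGAGCGCAgtcgccgcgga
*Slc39a5*, chr10:128401336-128401364, - strand: gaggttagcagGTGTGCActtagggaatt
*Slc39a8*, chr3:135825627-135825655, + strand: ttatctctaaaGGGTGCAgggcctgatct
*Slc31a2*, chr4:62286180-62286208, + strand: ccttttaatttTGCACTCaacatgtgtta

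The copper importers went opposite ways. *Slc31a1* (Ctr1, the high-affinity importer) was at 10.87, 10.81 and 11.02 in mutant villi, against 11.37, 11.43 and 11.46 in control villi. It fell by 0.52 (95% interval -0.71 to -0.33), to 69.7% of the control signal (adjusted p = 0.0042 from limma), and was called in all 15 refits, but its fold of 1.43 did not reach 1.5. *Slc31a2* (Ctr2, a vesicle protein that in mice promotes cleavage of Ctr1) was at 11.13, 10.96 and 10.83 in mutant villi and at 10.66, 10.22 and 10.22 in control villi. It rose by 0.61 (95% interval 0.29 to 0.92), 1.52-fold (adjusted p = 0.021). Its call was lost without mutant replicate 1 (adjusted p = 0.069), mutant replicate 2 (0.066), control replicate 2 (0.073) or control replicate 3 (0.073), and with control replicates 2 and 3 averaged (0.070). Within an array, the log2 signal of *Slc31a2* minus that of *Slc31a1* was 0.26, 0.15 and -0.19 in mutant villi, against -0.71, -1.21 and -1.24 in control villi. The shift was 1.13, for a pair chosen with the values known. As *Slc31a2* lay wholly higher and *Slc31a1* wholly lower in mutant villi, this difference had to separate the groups. The two-sided p of an exact permutation test was thus fixed at 0.1, again the smallest possible, and adds nothing to the single genes. Of the copper ATPases, *Atp7a*, the exporter of enterocytes, was at 8.84, 8.67 and 9.09 in mutant villi and at 8.86, 8.91 and 8.96 in control villi, a difference of -0.043 (95% interval -0.30 to 0.21, adjusted p = 0.84) that was 0.055 without mutant replicate 2. *Atp7b*, best known from liver, was at 7.01, 6.95 and 7.25 in mutant villi and at 7.36, 7.48 and 7.36 in control villi (-0.33, adjusted p = 0.053), and it was called in 7 of 15 refits.

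In 6 of the 7 changed genes, mutant replicate 3 was the mutant array nearest to the control mean, and in *Slc39a14* it was mutant replicate 1. How often this held over all called probe sets was not counted, so it is not a trait of these genes. Over all probe sets, mutant replicate 3 also lay nearest to the control arrays along the leading principal component (65% of the variance), at -28.1 against -35.2 and -35.6 for the other mutant arrays and 32.3 to 33.4 for the control arrays. Among the neutrophil markers, the 2 that rose had their highest value in mutant replicate 3. *S100a9* was at 7.94, 8.81 and 10.39 in mutant replicates 1 to 3 and at 5.41, 5.73 and 5.63 in control villi, and *S100a8* at 6.89, 8.35 and 9.69 in mutant villi and at 5.19, 4.86 and 4.96 in control villi, whereas *Ly6g*, which was not called, was at 6.70, 4.45 and 4.77 in mutant villi and 3.47, 3.35 and 3.96 in control villi.

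**Figure D3:**
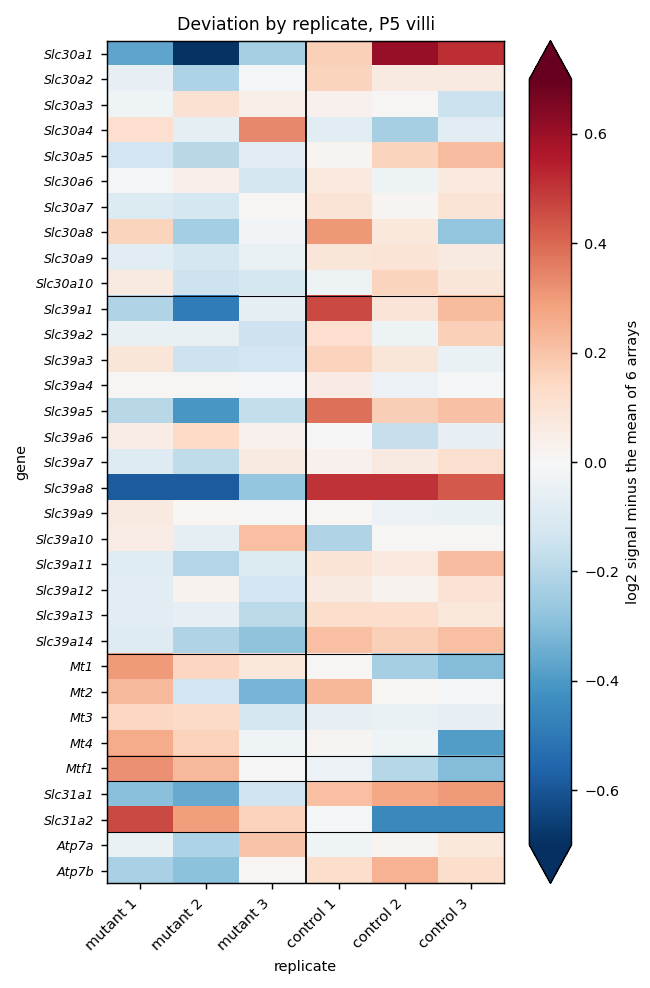
Log2 signal of the 33 genes (rows, by family) in the 3 mutant and 3 control arrays (columns), as the deviation from the mean of the 6 arrays, red for higher and blue for lower. *Slc30a1* and *Slc39a8* show the deepest contrast between groups, and most rows, among them *Slc39a4*, stay pale.

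Among genes that handle copper after uptake, 3 of 12 chaperones and reductases fell (25.0%, beside 8.82% of all probe sets) and none rose, with a median change of -0.085. *Atox1*, the chaperone that delivers copper to the ATPases, was at 9.28, 9.43 and 9.54 in mutant villi and 10.21, 9.96 and 9.93 in control villi, and fell by 0.62 (adjusted p = 0.0063 from limma). *Steap2*, a reductase of iron and copper, was at 6.18, 6.15 and 6.22 in mutant villi, under the median of all values, and at 7.56, 8.01 and 7.91 in control villi. It fell by 1.64 (adjusted p = 0.00014), which is a ratio of signals and need not be one of transcript amounts. *Commd1*, a regulator of copper ATPases, fell by 0.32 (adjusted p = 0.026), whereas *Ccs*, *Cox17* and *Sco1*, which carry copper to other enzymes, were not called (differences of -0.067, -0.10 and 0.073). Of 15 copper enzymes, *Aoc1*, the histamine-degrading diamine oxidase, fell by 0.85 (11.79, 11.83 and 12.22 in mutant villi, 12.91, 12.77 and 12.70 in control villi, adjusted p = 0.0033). *Sod3* (0.52, adjusted p = 0.0097) and *Pam* (0.32, adjusted p = 0.026) rose, and 12 were not called (median change 0.043), so that 13.3% rose and 6.67% fell, beside 8.04% and 8.82% of all probe sets. *Sod1*, which holds both copper and zinc, changed by 0.017 (adjusted p = 0.94).

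Other genes that have been assigned to MTF1 in mice did not share 1 direction. *Ndrg1* was at 10.38, 9.87 and 9.75 in mutant villi and at 8.99, 8.98 and 8.91 in control villi, and rose by 1.04 (adjusted p = 0.0032 from limma). *Gclc*, which is also a target of NRF2, rose by 3.32 (adjusted p = 4.0e-04), *Selenow* fell by 0.25 (adjusted p = 0.037) and *Csrp1* was not called (0.073, adjusted p = 0.69). Among zinc enzymes, none of 4 alkaline phosphatases was called, and 2 (*Akp3* and *Alpl*) had an unadjusted p under 0.05. *Akp3*, the duodenal form of mice, was at 12.46, 10.31 and 6.90 in mutant villi and at 6.86, 6.57 and 6.60 in control villi, so that 2 of 3 mutant arrays stood far above the controls (adjusted p = 0.10). Of 16 carbonic anhydrases, *Car9* (0.95, adjusted p = 0.00026) and *Car13* (0.38, adjusted p = 0.021) rose, *Car8* fell and 13 were not called (median change 0.048), so that 12.5% rose and 6.25% fell, near the 8.04% and 8.82% of all probe sets. The control mean of *Car9*, 5.99, lay under the median of all values. *Car8*, a member without enzyme activity, was at 6.95, 6.97 and 7.25 in mutant villi and 8.73, 9.11 and 9.04 in control villi, and fell by 1.90 (adjusted p = 0.00010). *Car2* was high in mutant replicate 1 alone, at 10.17, 7.26 and 7.27 in mutant villi and 6.68, 6.90 and 6.99 in control villi (adjusted p = 0.24).

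**Figure D4:**
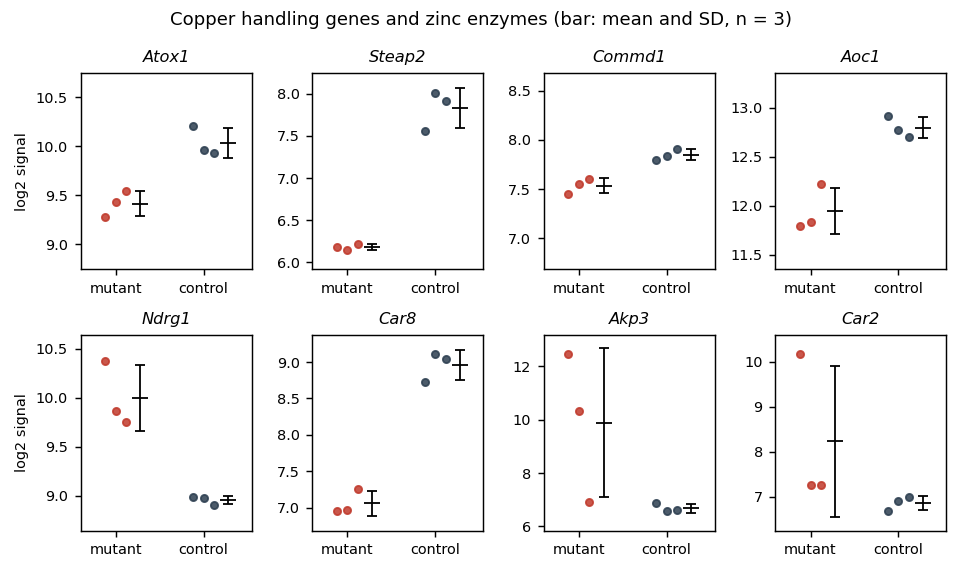
Log2 signal (y axis) of 8 genes in single replicates of mutant villi (red, left) and control villi (dark, right), with bars for the mean and SD of 3 arrays. The genes come from the lists of copper proteins, genes assigned to MTF1, alkaline phosphatases and carbonic anhydrases, and the span of the y axis differs between panels. *Atox1*, *Steap2*, *Commd1*, *Aoc1* and *Car8* lie lower and *Ndrg1* higher in mutant villi without overlap, while *Akp3* runs from 6.90 to 12.46 among mutant replicates.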

How the data were processed

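Total RNA of villi was labelled with biotin and hybridised to Affymetrix whole-transcript arrays, 1 per replicate. The authors deposited normalized log2 signals, rounded to 0.01, for 30177 probe sets; the sources used here do not name the background correction, normalization or software. The platform annotation gave 21789 probe sets a single gene symbol, 1621 several and 6767 none. Symbols were updated through Entrez IDs in a RefSeq table (21698 found). Where a gene had several probe sets, the one brightest on average was taken.

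The mutant minus control contrast was tested with lmFit and eBayes (limma 3.58.1, R 4.3.3; prior degrees of freedom 3.92), and p-values of the whole table were adjusted by Benjamini-Hochberg. The scripts were tested on simulated arrays. The 33 genes, the other lists and the alternatives were chosen with earlier results of these data known. The text names all 33, the called members of the lists of copper and zinc proteins with at most 4 others of each, and at most 3 genes of a marker list (the rule gave 2; *Ly6g* was added after its values were seen). Of the 131 other listed genes, 9 had no probe set of their own. Tables used pandas 2.3.3 and figures matplotlib 3.10.9. No samples were left out. The alternatives were trend and robust estimation, array weights, a replicate block, quantile normalization, median centring, an offset of 32 on the linear scale, a filter on dim probe sets, a Y-linked covariate, the other probe set, a fold of 1.5, each replicate left out and, added after the data were seen, control replicates 2 and 3 averaged.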

Additional observations from a re-analysis of the deposited data

How the results depend on the processing

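The number of probe sets called was 5088, 2103 at a fold change of at least 1.5, and 3249 (without mutant replicate 2) to 4385 (without mutant replicate 3) over the fits without 1 replicate, with 3336 without control replicate 2. Of the 33 genes, 6 fell and 1 rose. The number that fell was 10 with median centring, 11 with the offset of 32, 10 without dim probe sets, 2 at a fold of at least 1.5 (*Slc30a1* and *Slc39a8*, with *Slc39a1*, *Slc39a5*, *Slc39a14* and *Slc31a1* below it) and 5 to 7 without 1 replicate. The number that rose was 3 with array weights, with robust and trended estimation, with the Y-linked covariate or without dim probe sets, 2 with quantile normalization, 0 with control replicates 2 and 3 averaged, and 0 (without mutant replicate 1 or 2, or control replicate 2 or 3) to 3 (without control replicate 1) over the fits without 1 replicate, with 2 without mutant replicate 3. The median change kept its sign under every alternative run. Whether the replicate numbers pair the arrays cannot be decided from 3 arrays per group (correlations of deviations 0.174, 0.039 and 0.119). With the replicate block 3 genes rose and 6 fell, *Mt1* and *Mtf1* being added. Signs turned only in genes near 0: *Slc39a9* (-0.0044 with quantile normalization), *Slc30a8* (-0.22 to 0.068 without 1 replicate, above 0 without mutant replicate 2 at 0.035 and without control replicate 1 at 0.068) and *Atp7a* (-0.155 to 0.055 without 1 replicate, above 0 only without mutant replicate 2). Of 493 values of single genes in the refits (the fold threshold not being one), 444 kept direction and call, 35 in 7 genes became called and 10 in 2 genes (*Slc39a1* and *Slc31a2*) lost the call. The causes were not tested. Dim probe sets (*Slc30a8*, *Slc39a12* and *Mt4*) were not tested against background.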

Other observations

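*Cp* (ceruloplasmin, the copper protein of plasma) and *Steap4* (a metalloreductase) were highest in mutant replicate 3. *Cp* was at 5.60, 5.42 and 8.37 in mutant villi and 5.83, 6.00 and 5.99 in control villi (adjusted p = 0.67 from limma). *Steap4* was at 5.37, 5.94 and 6.82 in mutant villi and 4.80, 4.97 and 5.24 in control villi (1.04, adjusted p = 0.063). Both had a control mean under the median of all values.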
